A study of Mus musculus with 8 samples.

Results

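Polyamine metabolism genes were followed in mouse CD4+ T cells, as the 10 genes Odc1, Amd1, Srm, Sms, Sat1, Azin1, Oaz1, Oaz2, Dhps and Dohh. Each was found as the 1 row that bore its symbol, so that they were 10 of the 27179 rows of the table. The cells came from spleens of offspring aged 8 weeks of the strain C.Cg-Foxp3tm2Tch/J, and every library therefore carried the same altered Foxp3 allele. In its flow cytometry the study used GFP of this strain to mark regulatory T cells. During mating the parents drank either water with 10 ppm CdCl2 (Cd offspring) or unspiked water (Ctr, control offspring). The mothers stayed on the same water until the birth of the pups. CD4 T cells, described as CD25-negative conventional T cells in the study's figure legends, were enriched by negative selection and, per its methods, sorted. They were lysed at once (Unstim, 0 h) or after 16 h with anti-CD3/CD28 beads (Stim), which stand in for antigen and costimulation. Each of the 4 groups held 2 libraries, numbered replicates 6 and 7. The study counted litters as its replicates, but neither labels nor methods tie a library to a litter or say whether animals were pooled. The p-values therefore measure the spread between these libraries only.

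Polyamines (putrescine, spermidine and spermine) are small positively charged molecules that bind RNA and DNA, and dividing cells make more of them than resting cells. Ornithine decarboxylase, encoded by Odc1, makes putrescine from ornithine. S-adenosylmethionine decarboxylase, encoded by Amd1, supplies the aminopropyl groups that spermidine synthase (Srm) and spermine synthase (Sms) add. Antizymes (Oaz1, Oaz2) bind ornithine decarboxylase and send it to the proteasome, the antizyme inhibitor Azin1 takes antizyme away from it, and the acetyltransferase Sat1 starts polyamine breakdown and export. Spermidine is also a substrate of Dhps, which acts before Dohh. These 2 enzymes convert a lysine of the translation factor eIF5A to hypusine.

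The antizyme messages carry a stop codon inside the reading frame, which ribosomes pass by slipping forward 1 base when polyamines are abundant. This site is shown because it is where that slip takes place, and because it lies in the stretch that Oaz1 shares with its transcribed pseudogene Oaz1-ps. The windows below are the coding strand of the GENCODE transcripts on GRCm38, 67 bases each, with the codon before the stop, the stop codon and the next base (TCCTGAT) in capitals. The Oaz1 window lies at chr10:80828262-80828328 on the plus strand, the Oaz1-ps window at chr17:17345903-17345969 on the minus strand and the Oaz2 window at chr9:65686239-65686305 on the plus strand. The coding annotation of GENCODE leaves out 1 base at this site in both genes, at position 80828295 of chromosome 10 for Oaz1 and at position 65686272 of chromosome 9 for Oaz2.
Oaz1: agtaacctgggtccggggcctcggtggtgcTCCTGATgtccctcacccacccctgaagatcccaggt
Oaz1-ps: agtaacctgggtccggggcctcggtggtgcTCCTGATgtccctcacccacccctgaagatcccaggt
Oaz2: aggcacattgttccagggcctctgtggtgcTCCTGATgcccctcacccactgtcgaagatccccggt
The Oaz1 and Oaz1-ps windows were identical over all 67 bases, and Oaz1 and Oaz2 had the same base at 54 of 67. A local alignment of the Oaz1 and Oaz1-ps transcripts paired 681 bases, of which 680 were identical. Amd1 has such a partner too, the intronless gene Amd2, and their transcripts shared 3188 of 3198 aligned bases (99.7%). Reads from these stretches cannot be assigned to one copy with certainty, and how the counting treated reads that match several places is not given in the sources used here.

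Promoters were available from RefSeq (GRCm38.p6, 250 bases before to 50 after each start site) for 8 of the 10 genes, with none for Srm and Azin1. They were searched for CACGTG, the palindromic E-box that Myc and related factors can bind and that reads the same on both strands. It was present for 2 of the 8 genes, against 8.09% of the 27025 genes with a promoter in the table. The stretches that hold it, with the motif in capitals, were at chrX:157492466-157492495 on the minus strand for Sms, in 1 of its 2 promoters and 196 bases before the start site, and at chr10:81384424-81384453 on the plus strand for Dohh.
Sms: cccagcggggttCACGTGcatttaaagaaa
Dohh: gcccagcatggtCACGTGgccatcaagatg
The other 6 windows, those of Odc1, Amd1, Oaz1, Oaz2, Sat1 and Dhps, did not hold these letters.

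Values are given as RPKM, reads per kilobase of transcript and per 1000000 counted reads, with replicate 6 before replicate 7. The 8 libraries held 15542732 to 25486791 counted reads, and a member had between 297 and 5384 reads in a library. The 6 CD4 T cell markers (Cd3d, Cd3e, Cd3g, Cd4, Lck, Cd5) summed to 1950 to 2100 RPKM in unstimulated and 1300 to 1350 RPKM in stimulated libraries. Of 18 markers of CD8, B, myeloid, NK and erythroid cells, 12 stayed under 1 RPKM in all libraries. The summed CD8 markers were at 9.52 to 11.8 RPKM over all libraries, nearly all of it Cd8b1, and the summed erythroid markers at 0.365 to 1.72 RPKM in unstimulated and 1.04 to 1.38 RPKM in stimulated libraries, with Hba-a1 listed at 0. The summed NK markers were at 4.79 to 6.47 RPKM in unstimulated and 0.323 to 0.59 RPKM in stimulated libraries, with Ncr1 listed at 0 in 3 of the 4 groups. The summed myeloid markers went from 1.88 to 2.06 RPKM to 0.416 to 0.597 RPKM, with Cd14 listed at 0 throughout, and the summed B cell markers from 3.12 to 3.76 RPKM to 4.19 to 4.89 RPKM, with Ms4a1 listed at 0. The pair of regulatory T cell markers, Foxp3 and Ikzf2, summed to 6.32 to 7.95 RPKM without and 8.52 to 11 RPKM with stimulation. The part of these cells in the results was not tested. In bulk RNA, fewer cells of a type and less RNA per cell cannot be told apart. Sat1 and Sms lie on the X chromosome, and the libraries did not differ in sex: Xist, which is transcribed from the inactive X of female cells, was at 49.3 to 67.1 RPKM in all 8, and the Y-linked Ddx3y at 0.0105 RPKM at most.

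By the rows as counted, the breakdown enzyme and the antizyme Oaz1 led the list in resting cells of control offspring, and Srm and Odc1 led it after stimulation. Sat1 was the most abundant of the 10 in Ctr Unstim at 77.2 ± 2.65 RPKM (SD, n = 2), followed by Oaz1 at 54.7 ± 0.423 RPKM and Odc1 at 36.7 ± 1.92 RPKM. Srm was the seventh at 19.4 ± 0.734 RPKM, and Sms the lowest at 6.56 ± 0.155 RPKM. In Ctr Stim Srm was the first at 117 ± 7.76 RPKM, followed by Odc1 at 78.8 ± 0.307 RPKM, and Sat1 followed at 52.4 ± 0.375 RPKM. In Cd offspring Sat1 was again first in resting cells (67.9 ± 2.18 RPKM) and Srm in stimulated cells (111 ± 5.22 RPKM). The place of Oaz1 rests on how reads were split with Oaz1-ps, which alone was at 198 ± 18.4 RPKM in Ctr Unstim and 223 ± 15.1 RPKM in Ctr Stim, above all 10 genes. Neighbours in this order whose libraries overlapped were found only in Cd offspring, namely Dhps with Amd1 and Oaz2 with Dohh in Cd Unstim, and Azin1 with Amd1 and Dohh with Sms in Cd Stim.

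**Figure D1:**
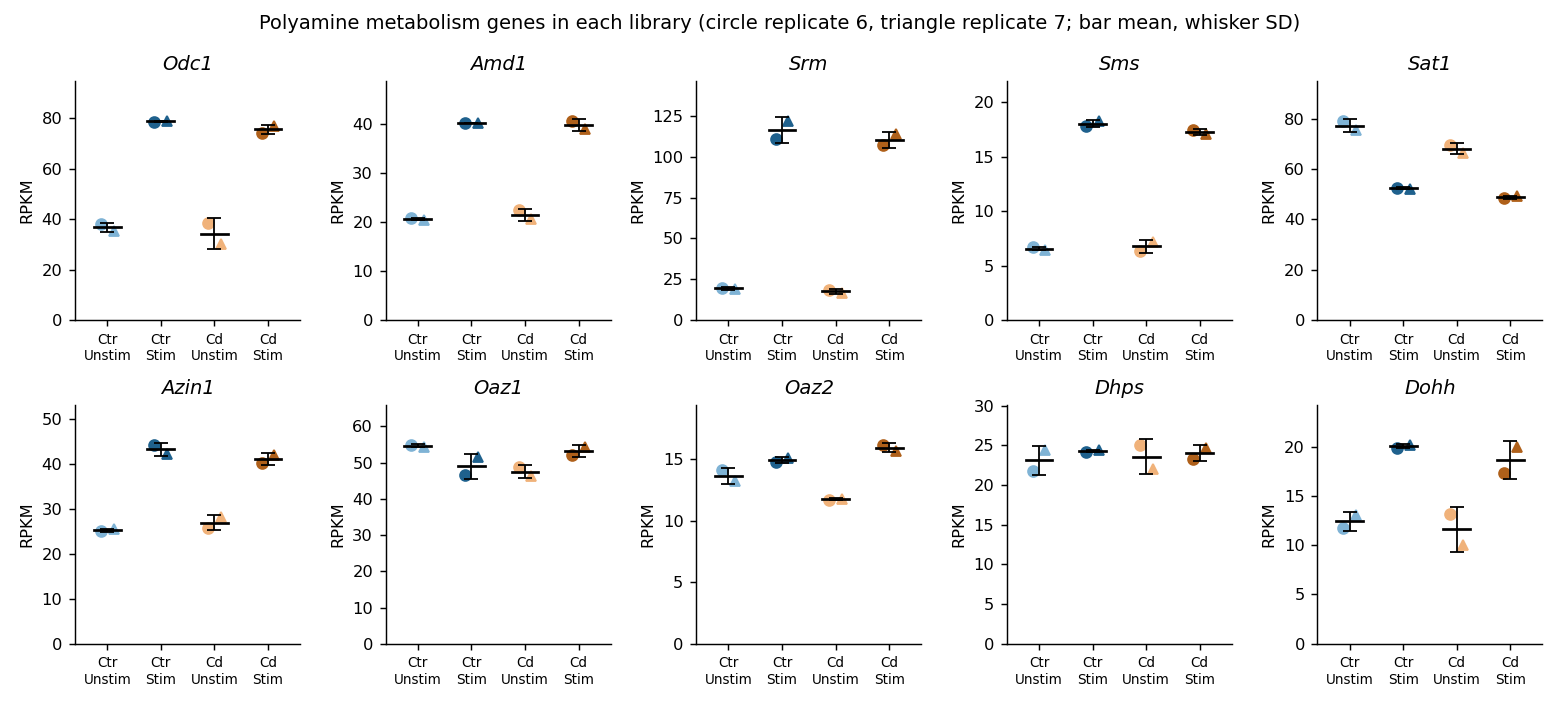
RPKM of the 10 polyamine metabolism genes in each of the 8 libraries (circles replicate 6, triangles replicate 7), with the group mean as a bar and the SD as a whisker; each panel has its own axis from 0. Srm, Odc1, Amd1, Sms, Azin1 and Dohh sit higher in both stimulated than in both unstimulated libraries of either parentage, and Sat1 sits lower.

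The first comparison asked how these genes differed after 16 h of stimulation. No group was cultured for 16 h without beads, so that stimulation and time in culture cannot be told apart. Differences were tested with limma on log2(RPKM + 0.1) over 12605 genes with a mean of at least 0.5 RPKM, which all 10 members passed, with Benjamini-Hochberg adjustment over all genes tested. Fold changes are on that log2 scale. A gene was called at an adjusted p under 0.01 and a change over 2-fold, and 3 of the 10 genes were called in control offspring, Srm, Sms and Odc1, all upward. Of all genes tested 18.7% were called (11.5% upward). In Cd offspring 3 of 10 were called, again Srm, Sms and Odc1, beside 18.6% of all genes (11.4% upward). With no fold minimum and an adjusted p under 0.05, 7 of 10 passed in control offspring, 6 upward and 1 downward, beside 64.8% of all genes (36.9% upward, 27.8% downward). By the same rule 9 of 10 passed in Cd offspring, 8 upward and 1 downward, beside 65.9% (36.5% upward, 29.4% downward). Over the 10 genes the log2 fold change had a median of 0.73 in control and 0.65 in Cd offspring, against 0.07 and 0.05 over all genes tested. The libraries of the 2 states did not overlap for 9 of 10 genes in either parentage, beside 83.1% of all genes in each.

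Srm, the spermidine synthase, rose most. It was at 19.9 and 18.8 RPKM in Ctr Unstim, 111 and 122 RPKM in Ctr Stim, 18.7 and 16.6 RPKM in Cd Unstim and 107 and 114 RPKM in Cd Stim. Every stimulated library was far above every unstimulated one. The fold change was 6.0 in control offspring (log2 2.59 ± 0.08 SE, adjusted p = 3.81e-07) and 6.24 in Cd offspring (log2 2.64 ± 0.08 SE, adjusted p = 3.58e-07). Of all genes tested, 1.44% had a larger log2 fold change in control offspring.

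Sms, which turns spermidine into spermine, rose from a lower level. Its values were 6.67 and 6.45 RPKM in Ctr Unstim, 17.8 and 18.3 RPKM in Ctr Stim, 6.34 and 7.21 RPKM in Cd Unstim and 17.5 and 17.1 RPKM in Cd Stim. The log2 fold change was 1.44 ± 0.08 (SE, adjusted p = 3.35e-06) in control and 1.34 ± 0.08 (SE, adjusted p = 4.89e-06) in Cd offspring. The 4 stimulated values lay within a narrower range than the 4 unstimulated ones in relative terms, and the states did not overlap.

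Odc1, the enzyme of the first step, was at 38.1 and 35.4 RPKM in Ctr Unstim, 78.5 and 79.0 RPKM in Ctr Stim, 38.6 and 30.0 RPKM in Cd Unstim and 74.3 and 76.9 RPKM in Cd Stim. Replicate 7 of Cd Unstim was the lowest library, and the stimulated libraries lay close together. The log2 fold change was 1.10 ± 0.11 (SE, adjusted p = 6.53e-05) in control and 1.15 ± 0.11 (SE, adjusted p = 5.31e-05) in Cd offspring. Both lay near the 2-fold limit: quantile normalization, which moved the median of all genes by -0.10 in control offspring, gave Odc1 0.97 there, and leaving out replicate 7 of Cd Unstim gave 0.97 in Cd offspring, so that neither value passed the limit.

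Amd1 lay just short of that limit. It was at 20.8 and 20.5 RPKM in Ctr Unstim, 40.3 and 40.3 RPKM in Ctr Stim, 22.4 and 20.6 RPKM in Cd Unstim and 40.7 and 39.0 RPKM in Cd Stim. It passed the adjusted p under 0.05 with no fold minimum, with a log2 fold change of 0.96 ± 0.06 (SE, adjusted p = 5.42e-06) in control and 0.89 ± 0.06 (SE, adjusted p = 8.23e-06) in Cd offspring. Its near-identical copy Amd2 was at 2.07 and 1.92 RPKM in Ctr Unstim and 7.28 and 7.55 RPKM in Ctr Stim, and at 2.17 and 2.60 RPKM in Cd Unstim and 7.47 and 6.48 RPKM in Cd Stim. Amd2 rose by 1.85 ± 0.13 (SE, adjusted p = 1.06e-05) in control and by 1.51 ± 0.13 (SE, adjusted p = 3.05e-05) in Cd offspring on the log2 scale. It held 8.78 ± 0.351% (SD, n = 2) of the reads of both copies in Ctr Unstim and 15.5 ± 0.335% in Ctr Stim. With the reads of both copies added, the sum was 73.3 and 71.9 RPM (reads per 1000000 counted reads) in Ctr Unstim, 152 and 153 in Ctr Stim, 78.8 and 74.3 in Cd Unstim and 154 and 146 in Cd Stim. The summed level was thus 2.11 times as high with stimulation in control and 1.96 times as high in Cd offspring.

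**Figure D2:**
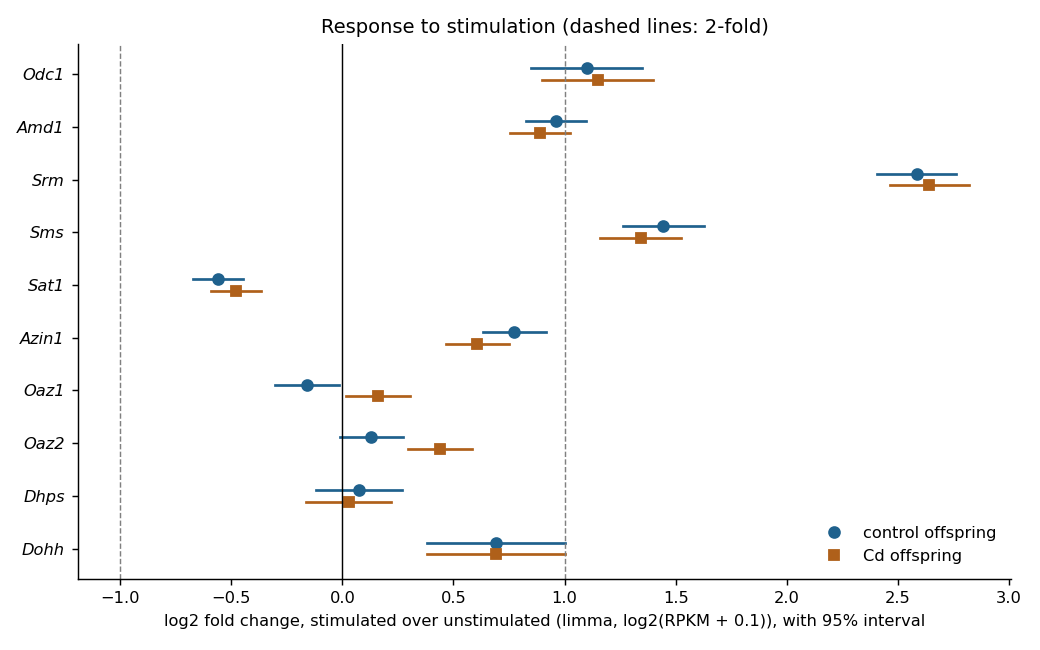
Log2 fold change of each gene, stimulated over unstimulated, with its 95% interval from limma, for control offspring (circles) and Cd offspring (squares); dashed lines mark 2-fold. Srm, Sms and Odc1 lie past the upper line in both, Amd1 just short of it, Sat1 below 0, and Oaz1 on opposite sides of 0 (-0.16 and 0.16).

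Sat1 was the 1 gene of the 10 that passed downward in both parentages. Its values were 79.1 and 75.4 RPKM in Ctr Unstim, 52.6 and 52.1 RPKM in Ctr Stim, 69.5 and 66.4 RPKM in Cd Unstim and 48.3 and 49.1 RPKM in Cd Stim. The lowest unstimulated library was above the highest stimulated one. The log2 fold change was -0.56 ± 0.05 (SE, adjusted p = 3.34e-05) in control and -0.48 ± 0.05 (SE, adjusted p = 7.62e-05) in Cd offspring, which passed the adjusted p under 0.05 and not the 2-fold limit. The ratio of Odc1 to Sat1 within a library was 0.481 and 0.469 in Ctr Unstim, 1.49 and 1.52 in Ctr Stim, 0.555 and 0.452 in Cd Unstim and 1.54 and 1.57 in Cd Stim. Odc1 RPKM was thus below Sat1 RPKM in every unstimulated library and above it in every stimulated one.

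Azin1, the antizyme inhibitor, was at 25.0 and 25.5 RPKM in Ctr Unstim, 44.3 and 42.2 RPKM in Ctr Stim, 25.8 and 28.1 RPKM in Cd Unstim and 40.1 and 42.0 RPKM in Cd Stim. It rose in both, by 0.77 ± 0.06 (SE, adjusted p = 2.02e-05) in control and by 0.61 ± 0.06 (SE, adjusted p = 7.33e-05) in Cd offspring on the log2 scale, under the adjusted p without a fold minimum. The stimulated libraries were all above the unstimulated ones.

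Oaz1 was at 55.0 and 54.4 RPKM in Ctr Unstim, 46.6 and 51.5 RPKM in Ctr Stim, 48.8 and 46.3 RPKM in Cd Unstim and 52.0 and 54.3 RPKM in Cd Stim. Both stimulated libraries were below both unstimulated ones in control offspring, and above them in Cd offspring. The log2 fold change was -0.16 ± 0.06 (SE, adjusted p = 0.0528) in control offspring, which did not pass, and 0.16 ± 0.06 (SE, adjusted p = 0.0492) in Cd offspring, which passed with no fold minimum. Neither held over the alternatives. The control value passed in 5 of 18 of them, among them median-of-ratios scaling (-0.23, adjusted p = 0.00943), quantile normalization (-0.31, adjusted p = 0.00278) and leaving out replicate 7 of Ctr Stim (-0.23, adjusted p = 0.0236), and its adjusted p ranged from 0.00278 to 0.308. The Cd value no longer passed in 11 of 18, was -0.0031 under quantile normalization, and its adjusted p ranged from 0.0368 to 0.966. Oaz2 was at 14.1 and 13.2 RPKM in Ctr Unstim, 14.8 and 15.1 RPKM in Ctr Stim, 11.7 and 11.8 RPKM in Cd Unstim and 16.2 and 15.7 RPKM in Cd Stim. The difference of Oaz2 in control offspring was 0.13 ± 0.06 on the log2 scale (SE, adjusted p = 0.0968) and did not pass. In Cd offspring Oaz2 rose by 0.44 ± 0.06 on the log2 scale (SE, adjusted p = 0.000457), and by 0.32 to 0.46 over all alternatives. The row Oaz2-ps, by its symbol a pseudogene copy of Oaz2, had 52 to 80 reads in a library. It differed by -0.07 ± 0.19 (SE, adjusted p = 0.751) in control and by -0.25 ± 0.19 (SE, adjusted p = 0.267) in Cd offspring. Neither passed, and the part of reads shared with Oaz2 was not tested.

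Most reads that could come from the Oaz1 message were counted on Oaz1-ps. The pseudogene was at 211 and 185 RPKM in Ctr Unstim, 213 and 234 RPKM in Ctr Stim, 208 and 184 RPKM in Cd Unstim and 226 and 229 RPKM in Cd Stim, with 3.06 to 4.09 times as many reads as Oaz1. Oaz1 held 22.5 and 24.6% of the reads of the pair in Ctr Unstim, 19.7 and 19.7% in Ctr Stim, 20.7 and 21.9% in Cd Unstim and 20.4 and 20.9% in Cd Stim. Oaz1-ps differed by 0.17 ± 0.09 (SE, adjusted p = 0.121) in control and by 0.22 ± 0.09 (SE, adjusted p = 0.0598) in Cd offspring on the log2 scale, and neither passed. The reads of the pair added up to 263 and 237 RPM in Ctr Unstim, 255 and 281 in Ctr Stim, 253 and 227 in Cd Unstim and 273 and 279 in Cd Stim. For this sum the stimulated and unstimulated libraries overlapped in control offspring and did not in Cd offspring, and the stimulated mean was the higher in both, by 1.07 and 1.15 times. The direction of Oaz1 in control offspring was thus not that of the summed reads.

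**Figure D3:**
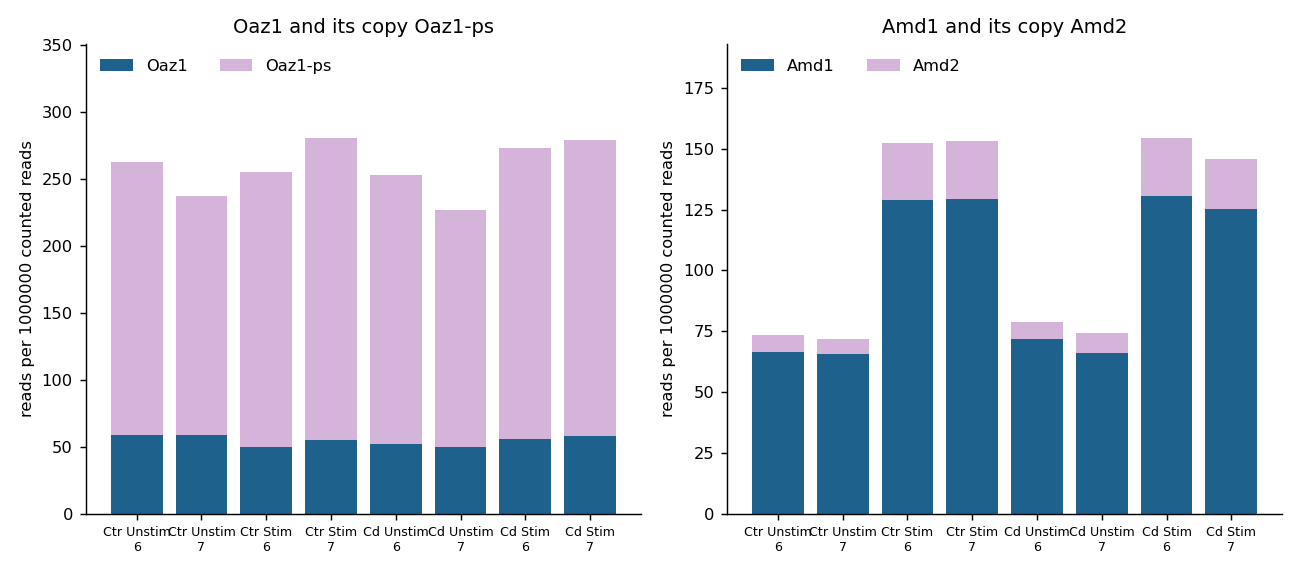
Reads per 1000000 counted reads (RPM) in each library, stacked for Oaz1 and its transcribed pseudogene Oaz1-ps (left) and for Amd1 and its intronless copy Amd2 (right). Oaz1 makes up 19.7 to 24.6% of the left bars, which range from 227 to 281, and the right bars range from 71.9 to 78.8 in unstimulated and from 146 to 154 in stimulated libraries, with Amd1 the larger part in all 8.

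The hypusine enzymes were unlike each other. Dhps, which acts first, was at 21.8 and 24.4 RPKM in Ctr Unstim, 24.2 and 24.4 RPKM in Ctr Stim, 25.1 and 22.0 RPKM in Cd Unstim and 23.3 and 24.7 RPKM in Cd Stim, and the states overlapped in both parentages. Its log2 difference was 0.07 (95% interval -0.12 to 0.27, adjusted p = 0.449) in control and 0.03 (-0.16 to 0.22, adjusted p = 0.775) in Cd offspring. Dhps overlaps the gene Wdr83 on chromosome 8, and Eif5a (below) overlaps Gps2 on chromosome 11. For both, whether the counting used strand is not given in the sources used here. Dohh, which completes hypusine, was at 11.7 and 13.1 RPKM in Ctr Unstim, 19.9 and 20.2 RPKM in Ctr Stim, 13.2 and 10.0 RPKM in Cd Unstim and 17.3 and 20.0 RPKM in Cd Stim. It rose by 0.69 ± 0.13 (SE) on the log2 scale in both parentages, with adjusted p = 0.00257 in control and 0.00262 in Cd offspring, and passed with no fold minimum. Their substrate Eif5a was at 162 and 148 RPKM in Ctr Unstim, 543 and 556 RPKM in Ctr Stim, 154 and 146 RPKM in Cd Unstim and 528 and 551 RPKM in Cd Stim. Eif5a was called in both, with a log2 fold change of 1.82 ± 0.06 (SE, adjusted p = 5.11e-07) in control and 1.85 ± 0.06 (SE, adjusted p = 5.77e-07) in Cd offspring. The ratio of Eif5a to Dhps RPKM went from 6.76 ± 0.946 (SD, n = 2) to 22.6 ± 0.224 in control and from 6.36 ± 0.345 to 22.5 ± 0.223 in Cd offspring.

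Further ratios within a library describe how the steps moved against each other, and none of them was tested. Srm RPKM was 2.98 and 2.92 times Sms RPKM in Ctr Unstim, 6.27 and 6.70 times in Ctr Stim, 2.94 and 2.31 times in Cd Unstim and 6.10 and 6.68 times in Cd Stim. Odc1 RPKM was 0.693 and 0.651 times Oaz1 RPKM in Ctr Unstim, 1.69 and 1.53 times in Ctr Stim, 0.791 and 0.649 times in Cd Unstim and 1.43 and 1.42 times in Cd Stim. Set against Oaz1 and Oaz1-ps together, Odc1 went from 0.145 ± 0.00322 (SD, n = 2) to 0.290 ± 0.0186 in control and from 0.140 ± 0.014 to 0.269 ± 0.00284 in Cd offspring. Azin1 RPKM was 0.454 and 0.469 times Oaz1 RPKM in Ctr Unstim and 0.951 and 0.820 times in Ctr Stim, and 0.529 and 0.607 times in Cd Unstim and 0.772 and 0.774 times in Cd Stim. In each of these ratios both stimulated libraries lay above both unstimulated ones. The level of the ratios to Oaz1 alone rests on how reads were split with Oaz1-ps. Azin1 was not set against both rows together.

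**Figure D4:**
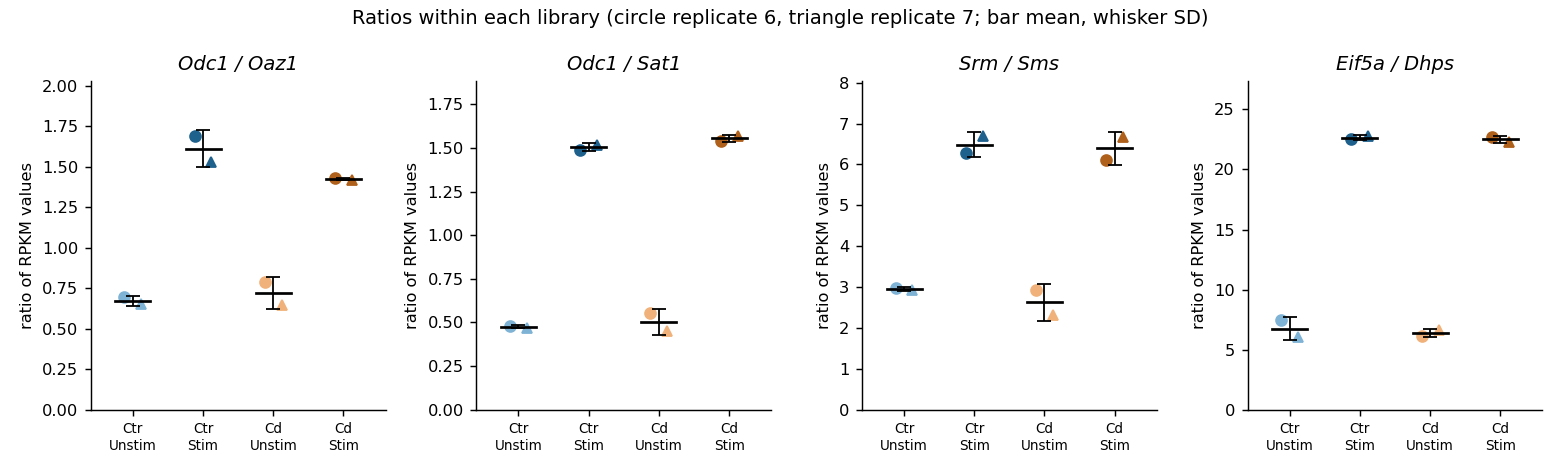
Ratios of RPKM values within each library (circles replicate 6, triangles replicate 7), with group means as bars and SDs as whiskers, for Odc1 over Oaz1, Odc1 over Sat1, Srm over Sms and Eif5a over Dhps; every axis starts at 0. All 4 ratios are higher in each stimulated library than in any unstimulated one, and Odc1 over Sat1 passes from 0.452 to 0.555 to 1.49 to 1.57.

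A list of 29 other genes of polyamine supply, salvage, oxidation, transport and hypusine formation gave the surroundings of the 10. Of these, 21 were expressed highly enough to be tested, and Mat1a, Sat2, Aoc1, Atp13a4 and Slc18b1 were listed at 0 in all libraries. In control offspring 7 of the 21 were called, all upward. The 5 with the largest rise were Amd2 and Eif5a (above), Eif5a2, the second eIF5A gene, with a log2 fold change of 1.64 ± 0.14 (SE, adjusted p = 2.98e-05), Slc7a1, a carrier of arginine and other cationic amino acids, with 1.32 ± 0.05 (SE, adjusted p = 9.30e-07), and the antizyme paralog Oaz3 with 1.09 ± 0.18 (SE, adjusted p = 0.0010), which stayed low at 0.833 and 1.08 RPKM in Ctr Unstim and 2.15 and 2.13 RPKM in Ctr Stim. In Cd offspring 6 of the 21 were called upward and 1 downward, beside the 18.7% and 18.6% of all genes called in control and Cd offspring (11.5% and 11.4% upward). With no fold minimum, 14 passed upward and 1 downward in control offspring, and 14 upward and 3 downward in Cd offspring, beside 36.9% and 36.5% of all genes upward and 27.8% and 29.4% downward. The median log2 fold change of the 21 was 0.58 in control and 0.64 in Cd offspring.

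By the pattern over the 8 libraries, measured as the root mean square difference of centred log2(RPKM + 0.1) among 8681 genes with a mean of at least 5 RPKM, the genes most like Odc1 were Timm17a (0.0454), Aimp2 (0.0470), Med7 (0.0501), Csrp1 (0.0529) and Eif6 (0.0536). The nearest of the other members to Odc1 was Amd1, at place 303 with a difference of 0.135. Those most like Srm were Thop1 (0.0545), Marcksl1 (0.0764), Txn1 (0.0792), Cd274 (0.0817) and Slc29a1 (0.0828), and the nearest member was Sms, at place 415 with 0.621. Over the same 8 libraries, which fall into 2 states, Pearson's r with Odc1 was 0.987 for Amd1, 0.991 for Srm, 0.081 for Oaz1 and -0.906 for Sat1, given as a description.

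The second comparison asked whether prenatal Cd changed these genes. In unstimulated cells 0 of the 10 genes passed an adjusted p under 0.05 in limma, beside 0.896% of all genes tested. At an unadjusted p under 0.05 there were 3, Sat1, Oaz1 and Oaz2, all lower in Cd offspring, beside 13.9% of all genes in either direction and 7.43% in that one. Sat1 was lower by 0.18 ± 0.05 on the log2 scale with values of 69.5 and 66.4 RPKM against 79.1 and 75.4 RPKM (adjusted p = 0.172). The differences of Oaz1 (-0.20 ± 0.06 SE, adjusted p = 0.225) and Oaz2 (-0.22 ± 0.06 SE, adjusted p = 0.202) were of like size. Libraries of the 2 parentages did not overlap for 5 of 10 genes, beside 42.3% of all genes. The other 7 genes ranged from -0.14 for Srm (95% interval -0.31 to 0.04) to 0.09 for Azin1 (-0.05 to 0.23), and the widest interval was that of Dohh, from -0.42 to 0.20.

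In stimulated cells 0 of the 10 genes passed an adjusted p under 0.05, and 0 of all 12605 genes (0.0%) did. None of the 10 had an unadjusted p under 0.05, beside 3.28% of all genes. The differences ran from -0.11 for Dohh (95% interval -0.42 to 0.20) to 0.12 for Oaz1 (-0.03 to 0.26). For Srm the interval was -0.26 to 0.10 and for Odc1 -0.31 to 0.19, so that differences within these intervals were not excluded with 2 libraries a group. The libraries of 6 of 10 genes did not overlap, beside 36.7% of all genes, with Azin1, Odc1, Sat1 and Sms lower and Oaz1 and Oaz2 higher in Cd offspring. The fit of limma voom to recovered reads also called 0 of the 10 in either state.

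**Figure D5:**
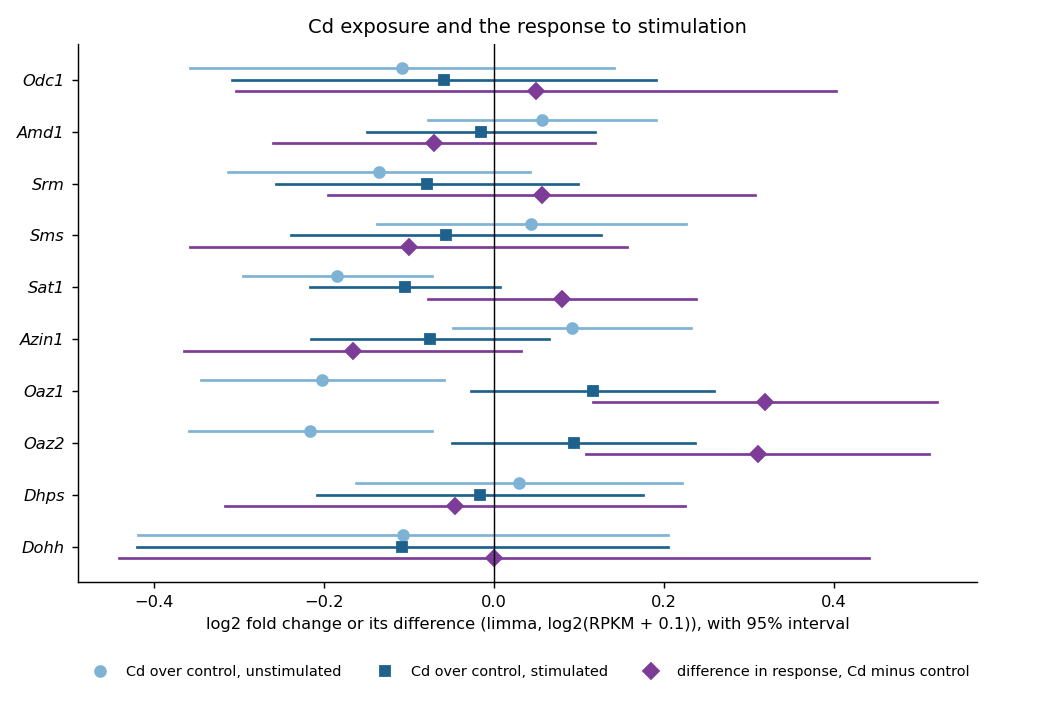
Log2 fold change of Cd over control offspring in unstimulated cells (circles) and stimulated cells (squares), and the difference between the 2 responses to stimulation (diamonds), each with its 95% interval from limma before adjustment for the number of genes. Intervals that leave out 0 are those of Sat1, Oaz1 and Oaz2 in unstimulated cells and of Oaz1 and Oaz2 for the difference in response, and none of these passed the adjustment.

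The third comparison asked whether the response to stimulation differed between Cd and control offspring. The interaction term passed an adjusted p under 0.05 for 0 of the 10 genes, beside 0.357% of all genes tested. At an unadjusted p under 0.05 there were 2, both antizymes and both higher, beside 10.6% of all genes in either direction and 5.51% in that one. The response of Oaz1 was higher in Cd offspring by 0.32 ± 0.09 on the log2 scale (SE, adjusted p = 0.266) and that of Oaz2 by 0.31 ± 0.09 (SE, adjusted p = 0.276). For Oaz1-ps the same term was 0.05 ± 0.12 (SE, adjusted p = 0.907), and for Oaz2-ps -0.18 ± 0.27 (SE, adjusted p = 0.823). Azin1 gave the largest negative term, -0.17 (95% interval -0.36 to 0.03, adjusted p = 0.531). The responses of the synthesis enzymes differed by 0.06 for Srm (-0.20 to 0.31), 0.05 for Odc1 (-0.30 to 0.40), -0.07 for Amd1 (-0.26 to 0.12) and -0.10 for Sms (-0.36 to 0.16), each interval containing 0. An exact permutation test of a single gene with 2 libraries against 2 cannot give a two-sided p below 0.333, so none was used.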

How the data were processed

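RNA sequencing libraries (8, mRNA, paired reads) were aligned by the authors to mm10 with Subread and counted on RefSeq transcripts with featureCounts. The deposited values are log2(RPKM + 1) plus 0.0001, so that 0.0001 stands for 0, and they were turned back into RPKM. Whole reads were recovered for 17794 of 17794 genes above 0 in at least 2 libraries (within 0.001 of a whole number), with totals of 15542732 to 25486791. Groups came from the labels. limma 3.58.1 in R 4.3.3 was fitted to log2(RPKM + 0.1) of genes with a mean of at least 0.5 RPKM, with 4 group means, all 8 libraries and a mean-variance trend, and tested on simulated data, where it called 195 of 200 changed genes and 5 of the others among 12545 in the comparison of stimulation in control offspring. All changes put into the simulated data were over 2-fold, so that the finding of smaller changes was not tested. Alternatives were other pseudocounts, filters, scalings, a replicate block, no trend, limma voom on recovered reads and each library left out. Genes of the surroundings were named when among the 5 largest rises or falls called in control offspring, or at 0 throughout, with Eif5a and Amd2 always. Likeness was ranked over genes of at least 5 RPKM. Members and lists were chosen with earlier results of these data known. IDs matched RefSeq for 25275 of 27179 rows, all 10 members included. One marker of the fixed lists is not reported here.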

Additional observations from a re-analysis of the deposited data

Results flagged for a closer look

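Oaz1 was singled out because its stimulated libraries were both below the unstimulated ones in control offspring (46.6 and 51.5 RPKM against 55.0 and 54.4 RPKM) and both above them in Cd offspring (52.0 and 54.3 RPKM against 48.8 and 46.3 RPKM). The test of the difference in limma gave 0.32 ± 0.09 on the log2 scale (SE, unadjusted p = 0.00707, adjusted p = 0.266), which failed the adjustment over all genes, and the term ranged from 0.25 to 0.39 over the alternatives. Oaz1 shares a stretch with Oaz1-ps, and the reads of both added up to 250 ± 18.1 reads per 1000000 counted (SD, n = 2) in Ctr Unstim and 268 ± 18.2 in Ctr Stim. In Cd offspring the sum was 240 ± 18.3 in Cd Unstim and 276 ± 3.79 in Cd Stim. The stimulated mean of the sum was thus higher in both, by 0.10 in control and 0.20 in Cd offspring on the log2 scale. The part of this sharing in the result was not tested. Groups of 2 libraries were too small for a search for single outlying libraries.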

How the results depend on the processing

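An adjusted p under 0.05 with no fold minimum called 8165 genes and 7 of the 10 with stimulation in control offspring, and 8305 and 9 in Cd offspring. Leaving out 1 library gave 2138 to 2344 and 2090 to 2336 of all genes, and 3 and 2 to 3 of the 10; the 2 came without replicate 7 of Cd Unstim, where Odc1 was at 0.97, as it was in control offspring under quantile normalization. For Cd in unstimulated cells the count over all genes was 113, and 66 with no filter, 52 with only the libraries compared, 14 with no trend, 211 by voom and 19 to 105 with 1 library left out, lowest without replicate 6 of Ctr Unstim. In stimulated cells it was 0, and 7 with no filter, 2 with no trend and 0 to 3 with 1 library left out. For the difference in response it was 45, and 4 with no trend, 111 by voom and 2 to 63 with 1 library left out, lowest without replicate 7 of Cd Stim. In all of these 0 of the 10 genes were called for Cd or the difference in response, and the lowest adjusted p among them was 0.0898.

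The correlation of deviations between groups by replicate number ran from -0.11 to 0.06. Such values cannot settle whether libraries of the same number came from the same animal, which the sources do not say. With the replicate block the difference in response gave 25 calls over all genes, and no call among the 10 genes at 2-fold changed, while Oaz1 in Cd offspring no longer passed the adjusted p under 0.05 with no fold minimum (adjusted p = 0.0877).

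Under that rule with no fold minimum, Oaz1 was the 1 gene of the 10 whose result with stimulation changed. In control offspring it passed in 5 of 18 alternatives, under both other scalings (adjusted p = 0.00943 and 0.00278), without replicate 7 of Ctr Stim (0.0236) and without either Cd Unstim library (0.0486). In Cd offspring it did not pass in 11 of 18, among them no filter (0.0593), no trend (0.0938), median-of-ratios scaling (0.125) and leaving out replicate 7 of Cd Stim (0.217).

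Signs turned only for differences that passed no test, apart from Oaz1 in Cd offspring (-0.0031 under quantile normalization). With stimulation, Dhps was at -0.001 under median-of-ratios scaling and -0.060 under quantile normalization in control offspring, and at -0.018 and -0.11 in Cd offspring. With 1 library left out Dhps ran from -0.0055 to 0.16 and from -0.064 to 0.12. For Cd in unstimulated cells, leaving out 1 library gave -0.29 to 0.071 for Odc1, -0.0063 to 0.12 for Amd1, -0.047 to 0.13 for Sms, -0.064 to 0.12 for Dhps and -0.30 to 0.088 for Dohh. In stimulated cells it gave -0.046 to 0.016 for Amd1 and -0.058 to 0.024 for Dhps. For the difference in response it gave -0.13 to 0.23 for Odc1, -0.026 to 0.14 for Srm, -0.14 to 0.047 for Dhps and -0.20 to 0.19 for Dohh, and Dohh was at 0.028 under median-of-ratios scaling and 0.0054 by voom. The causes were not tested. A member had at least 297 reads in a library, and each group held 2 libraries, which limits how small a difference can be seen.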

Other observations

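The values of 4 further genes of the pathway are given, chosen after these values were seen. Mat2a, which makes the S-adenosylmethionine that Amd1 uses, was at 76.7 and 75.7 RPKM in Ctr Unstim, 160 and 153 RPKM in Ctr Stim, 91.0 and 90.4 RPKM in Cd Unstim and 148 and 150 RPKM in Cd Stim. It was higher in Cd than in control offspring in both unstimulated libraries, by 0.25 ± 0.04 on the log2 scale (SE, limma adjusted p = 0.0554), and the difference in response was -0.32 ± 0.06 (SE, adjusted p = 0.131), so that neither passed. Paox, a polyamine oxidase, was at 2.69 and 2.12 RPKM in Ctr Unstim and 1.45 and 1.21 RPKM in Cd Unstim, a difference of -0.81 ± 0.19 on the log2 scale (SE, adjusted p = 0.148) that did not pass. Paox rose with stimulation in Cd offspring to 2.62 and 3.12 RPKM, by 1.05 ± 0.19 (SE, adjusted p = 0.00187). In control offspring it was at 2.78 and 3.52 RPKM with stimulation, a difference of 0.38 ± 0.19 (SE, adjusted p = 0.12), and the difference in response did not pass (0.68 ± 0.27 SE, adjusted p = 0.441). The arginases, which supply ornithine, stayed low: Arg1 was at 1.66 and 1.66 RPKM in Ctr Unstim and 2.75 and 2.34 RPKM in Cd Unstim, and Arg2 at 1.33 and 1.86 RPKM against 2.69 and 2.27 RPKM. Neither difference passed the adjustment (adjusted p = 0.308 and 0.251). With stimulation in Cd offspring Arg1 was at 1.69 and 1.09 RPKM, a log2 fold change of -0.85 ± 0.21 (SE, adjusted p = 0.00915). Arg2 was at 1.16 and 1.19 RPKM there, with -1.01 ± 0.20 (SE, adjusted p = 0.00278), the 1 gene of the surroundings called downward. In control offspring Arg1 and Arg2 (-0.28 and -0.42) did not pass (adjusted p = 0.283 and 0.0999). Neither did their differences in response (adjusted p = 0.539 and 0.511). Mat2a overlaps Ggcx and Particl, Paox overlaps Echs1, and Arg2 overlaps Vti1b among others. Whether the counting used strand is not given in the sources used here. Paox had as few as 43 reads in a library of Cd Unstim, and Arg1 and Arg2 as few as 41 and 36 in a library of Cd Stim.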
